A study of Homo sapiens with 6 samples.

Results

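The enzymes described here are those that oxidise, reduce and conjugate foreign compounds, aldehydes, steroids and vitamins. The genes were chosen by their symbols: the cytochrome P450 genes (CYP, without CYP51A1), the aldehyde dehydrogenases (ALDH), the AKR1 aldo-keto reductases, the cytosolic and kappa glutathione transferases (GST), the UDP-glucuronosyltransferases (UGT) and the sulfotransferases (SULT). The symbol patterns took 92 of the 35974 genes in the deposited table. RNA was sequenced from SU-DHL-8, a diffuse large B-cell lymphoma line that the labels give as wild type for DNMT1. The inhibitor group (3 libraries) received GSK3685032, an inhibitor of the maintenance DNA methyltransferase DNMT1, and the DMSO group (3 libraries) received the solvent; inhibitor replicates 2 and 3 carry treatment labels that read GSK3685033 and GSK3685034. Both groups come from the same line, so no result extends beyond it, and the dose and the length of exposure were not given in the sources used here.

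Drug-metabolising enzymes are usually described in phases. In phase I, P450 enzymes insert oxygen into a substrate with electrons passed on by the reductase POR, and aldehyde dehydrogenases and aldo-keto reductases oxidise or reduce carbonyl groups. In phase II, transferases attach glutathione, glucuronic acid or sulfate, and export pumps then carry the conjugates out of the cell. Most of these families are best known from the liver and gut, where receptors such as AHR and the transcription factor NRF2 set their levels, and many ALDH enzymes also work in amino acid and vitamin A metabolism.

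The inhibitor libraries held 53846028 to 56795603 estimated counts and the DMSO libraries 57451935 to 75304441, with about 4 counts to a read pair. DNMT1 was measured at 13.3, 11.8 and 13.0 FPKM (fragments scaled to transcript length and library size) in the inhibitor libraries and at 33.0, 33.6 and 32.3 FPKM in the DMSO libraries. All 7 B-cell markers looked up were present in both groups, with summed levels of 802.6 to 868.7 FPKM with the inhibitor and 869.1 to 885 FPKM with DMSO. Of the germinal centre markers BCL6, MME, LMO2 and MYBL1, 1 was higher and 3 were lower, and their sum was 4.30 to 5.07 FPKM in inhibitor libraries and 14.02 to 15.97 FPKM in DMSO libraries. Markers of the organs in which these enzymes are best known were low: the 3 hepatocyte markers with a row in the table (ALB, APOA1 and APOB) summed to 0.444 to 0.687 FPKM with the inhibitor and 0.551 to 0.587 FPKM with DMSO, and the enterocyte marker VIL1 was at 0 to 0.0269 FPKM with the inhibitor and 0 to 0.0104 FPKM with DMSO. In bulk RNA, fewer cells of a type and less RNA per cell cannot be told apart.

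More enzyme genes were detected after the inhibitor. An FPKM of at least 1 was reached by 21 members in each inhibitor library, against 14, 16 and 15 in the DMSO libraries. The same count over all genes is not given here. Over the whole table, genes with enough read pairs to compare replicates numbered 15492 to 15606 in inhibitor pairs and 13535 to 13795 in DMSO pairs. This number was taken by read pairs over pairs of libraries, not by FPKM per library, so its size cannot be set beside the members' count. By that other measure, a higher number with the inhibitor was not limited to these enzymes. Of the 92 members, 51 had enough counts to be tested. With the inhibitor, 28 of these 51 were higher (54.9%) and 12 were lower (23.5%), by edgeR's quasi-likelihood test at an adjusted p under 0.05. The same test called 38.1% of all 20783 tested genes higher and 27.3% lower, 65.4% in all. Of the 28 higher members, 7 had 0 counts in every DMSO library; such genes entered the test only through their inhibitor counts, and all 1809 genes of that kind in the table were called higher. The median log2 fold change of the tested members was 0.97, against 0.14 over all tested genes. Among members with a mean FPKM of at least 1 in either group, 12 of 21 were higher and 7 of 21 were lower. The backgrounds at that level were 34.1% higher and 39.7% lower of 12777 genes, with median log2 fold changes of 0.61 for the 21 members and -0.06 for all.

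The change reached 2-fold upward in 21 members (25.3% of all tested genes did so) and 2-fold downward in 4 (8.10% of all). Of the 92 members, 39 overlap another gene of the table, 27 of them on the opposite strand. The FPKM values of both groups did not overlap in 41 tested members, 30 above and 11 below DMSO, where 71.7% of all tested genes did not overlap, 41.7% above and 30.0% below. The highest levels belonged to the same 3 genes in both groups, in another order. With the inhibitor they were ALDH18A1 (35.1 ± 1.43 FPKM), ALDH9A1 (28.65 ± 0.571 FPKM) and AKR1B1 (25.97 ± 1.10 FPKM), and with DMSO AKR1B1 (44.9 ± 2.68 FPKM), ALDH18A1 (42.7 ± 1.22 FPKM) and ALDH9A1 (33.76 ± 0.101 FPKM; SD, n = 3 per group). All 3 of these abundant transcripts were lower with the inhibitor, while the largest increases were in genes at or near 0 with DMSO.

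**Figure D1:**
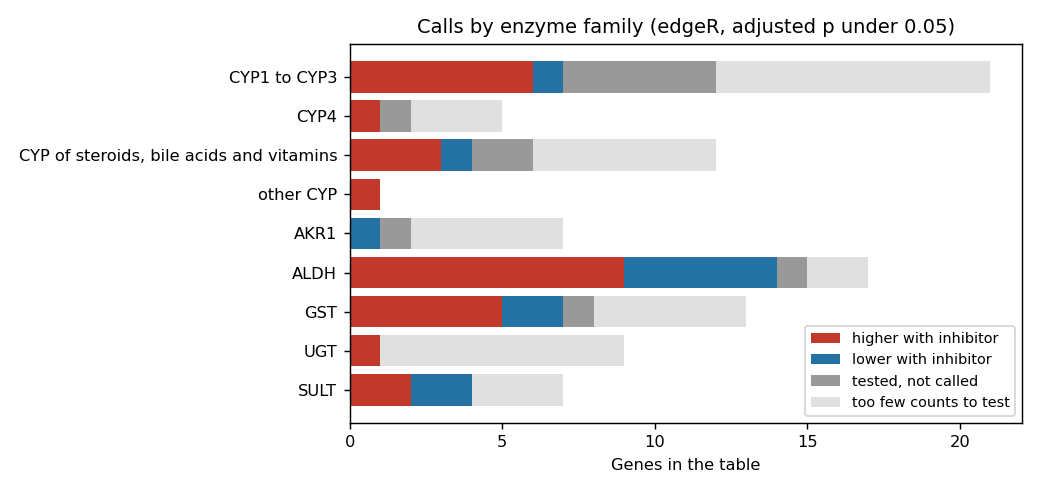
Number of genes in each enzyme family (horizontal axis) that were higher or lower with the inhibitor, tested without a call, or had too few counts to test. The ALDH family has the most calls, 9 higher and 5 lower of 15 tested, while 8 of the 9 UGT genes had too few counts. Over all tested genes, 38.1% were higher and 27.3% lower.

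**Figure D2:**
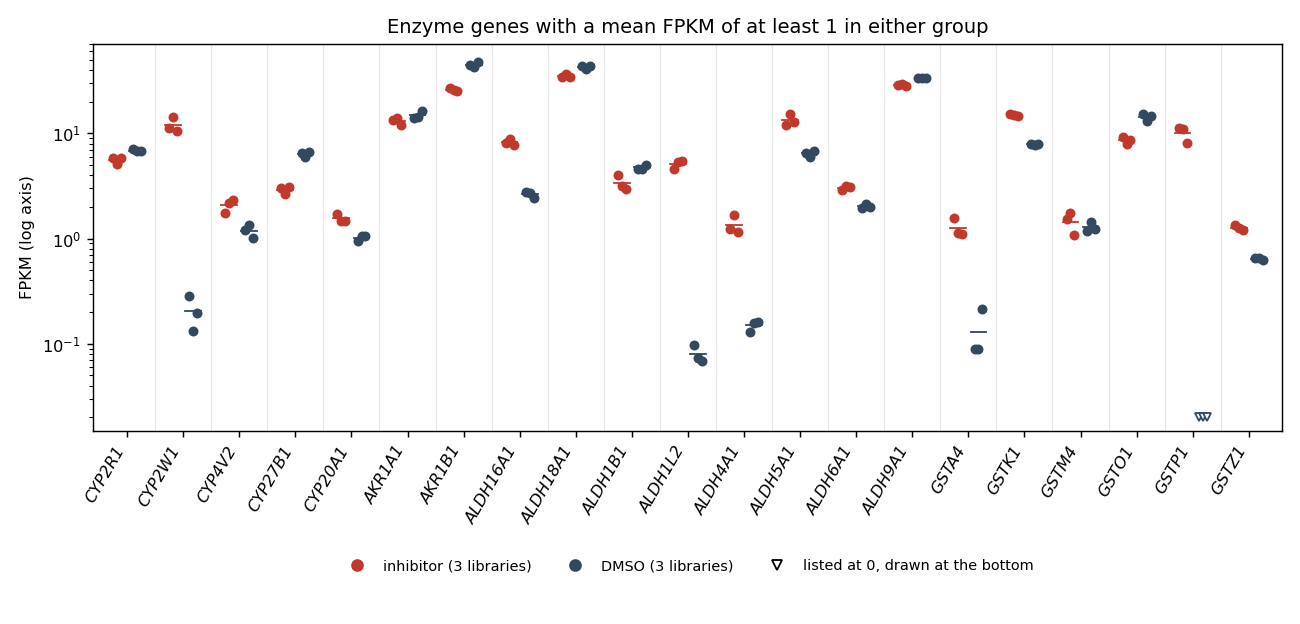
FPKM (log axis) of the 21 enzyme genes with a mean of at least 1 in either group, by family; each point is a library, inhibitor left and DMSO right of each position, bars are means, and open triangles stand for values listed at 0. GSTP1 is at 0 in the 3 DMSO libraries, CYP2W1 and ALDH1L2 are separated by over a decade, and AKR1B1, CYP27B1 and GSTO1 are lower with the inhibitor.

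Among the xenobiotic-metabolising P450 genes of families CYP1 to CYP3, 12 of 21 were tested. Of these 6 were higher, 1 was lower and 5 were not called, where 38.1% of all tested genes were higher and 27.3% lower. CYP2W1 stood out by level. This P450 without an agreed natural substrate is known from the fetal gut and from colon tumours, and lies on chromosome 7 (GRCh38 983181 to 989640). It measured 11.2, 14.2 and 10.6 FPKM in the inhibitor libraries, against 0.284, 0.133 and 0.196 FPKM in the DMSO libraries. Every inhibitor library was far above every DMSO library, and the log2 fold change was 5.88 (SE 0.227, edgeR adjusted p = 4.48e-08), or 58.9-fold. CYP2W1 alone made up most of the summed level of the CYP1 to CYP3 genes with the inhibitor, 20.5, 22.9 and 20.8 FPKM, against sums of 8.87, 8.24 and 8.59 FPKM with DMSO.

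The AHR-controlled enzymes CYP1A1 and CYP1B1, which oxidise polycyclic aromatic hydrocarbons and oestrogens, were higher at low levels. CYP1A1 (chromosome 15, 74719542 to 74725536) measured 0.762, 0.748 and 0.962 FPKM with the inhibitor, against 0.0457, 0.0325 and 0.0826 FPKM with DMSO. The groups did not overlap, and the log2 fold change was 3.91 (SE 0.362, edgeR adjusted p = 9.14e-06). CYP1B1 measured 0.232, 0.275 and 0.255 FPKM with the inhibitor and 0 in the 3 DMSO libraries, at least 27.4-fold higher against a floor of 12 counts (3 read pairs) over the DMSO group. That bound was 17.1 without DMSO replicate 2 and 18.2 without DMSO replicate 3, where fewer DMSO counts stand behind the floor. CYP2U1, which hydroxylates long-chain fatty acids, measured 0.402, 0.545 and 0.464 FPKM with the inhibitor, against 0, 0.0521 and 0.0888 FPKM with DMSO. It lies within an antisense gene, CYP2U1-AS1, which was lower (0.0620 FPKM with the inhibitor and 0.519 FPKM with DMSO). The CYP2U1 fold was 9.65, and 16.5 without DMSO replicate 3 (log2 fold change 3.27, SE 0.732, edgeR adjusted p = 0.00301). CYP2C8, a liver drug oxidase, had 0 DMSO counts and was at 0.130 to 0.163 FPKM with the inhibitor, at least 6.62-fold higher, or 4.14-fold without DMSO replicate 2 and 4.40-fold without DMSO replicate 3.

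The only lower gene of CYP1 to CYP3 was CYP2R1, which carries out the first hydroxylation of vitamin D. CYP2R1 measured 5.82, 5.12 and 5.89 FPKM in inhibitor libraries, against 7.07, 6.75 and 6.72 FPKM in DMSO libraries. The groups did not overlap but lay close, at a log2 fold change of -0.29 (SE 0.0742, edgeR adjusted p = 0.00629). The call was lost with upper-quartile scaling (adjusted p = 0.181), and with inhibitor replicate 1 alone the log2 fold change was -0.21. CYP2D6, a polymorphic drug oxidase of the liver, was called higher at 0.460, 0.534 and 0.718 FPKM with the inhibitor, against 0.321, 0.330 and 0.230 FPKM with DMSO (log2 fold change 0.93, SE 0.306, edgeR adjusted p = 0.0222). On the opposite strand CYP2D6 lies within NDUFA6-DT, which was not called (mean 1.03 FPKM with the inhibitor and 0.748 FPKM with DMSO). Some CYP2D6 reads may belong to that gene, since the use of strand in counting was not given. The CYP2D6 call was lost without DMSO replicate 3 (adjusted p = 0.0687) and without inhibitor replicate 3 (adjusted p = 0.0960). Its neighbour CYP2D7, a near-copy with which it can share reads, was not called (log2 fold change 0.47, SE 0.274, edgeR adjusted p = 0.165). CYP3A5, a drug oxidase of liver and gut, overlapped between groups at 0.390 to 0.442 FPKM with the inhibitor and 0.351 to 0.513 FPKM with DMSO. CYP2E1, which oxidises ethanol, was at 0.203 to 0.311 FPKM with the inhibitor and 0.171 to 0.213 FPKM with DMSO, without a call (log2 fold change 0.44, SE 0.239, edgeR adjusted p = 0.135, or 0.0460 with upper-quartile scaling). The nicotine oxidase CYP2A6 and the fetal liver enzyme CYP3A7 were also not called, and neither exceeded 0.1673 FPKM in any library.

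The promoter sequences of 4 genes are shown because they belong to the largest increase from 0 (GSTP1), the largest P450 increase (CYP2W1), the classical AHR-responsive P450 (CYP1A1) and the member with the highest level in the DMSO libraries, which was lower with the inhibitor (AKR1B1). They are the 250 bases before the annotated start from RefSeq (GRCh38.p14), 5′ to 3′ on the gene's strand, at chr11:67583562-67583811 (plus strand), chr7:982931-983180 (plus strand), chr15:74725529-74725778 (minus strand) and chr7:134459240-134459489 (minus strand). Capitals mark CG dinucleotides, the pair at which human DNA is mostly methylated and which DNMT1 maintains; methylation itself was not measured in these files.
GSTP1: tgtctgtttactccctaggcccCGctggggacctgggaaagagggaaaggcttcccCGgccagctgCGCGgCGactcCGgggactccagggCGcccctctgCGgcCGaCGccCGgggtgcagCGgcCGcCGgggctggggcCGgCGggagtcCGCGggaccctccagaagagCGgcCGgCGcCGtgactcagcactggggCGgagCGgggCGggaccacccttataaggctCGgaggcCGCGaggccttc
CYP2W1: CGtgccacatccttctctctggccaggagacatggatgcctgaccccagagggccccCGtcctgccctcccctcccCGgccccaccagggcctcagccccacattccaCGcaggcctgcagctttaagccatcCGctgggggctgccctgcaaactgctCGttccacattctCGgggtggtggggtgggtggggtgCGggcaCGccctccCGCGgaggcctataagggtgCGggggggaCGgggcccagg
CYP1A1: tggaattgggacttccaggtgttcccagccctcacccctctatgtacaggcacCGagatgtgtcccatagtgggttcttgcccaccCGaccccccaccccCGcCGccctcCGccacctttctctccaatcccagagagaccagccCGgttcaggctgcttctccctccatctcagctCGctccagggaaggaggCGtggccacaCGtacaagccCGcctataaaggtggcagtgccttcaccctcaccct
AKR1B1: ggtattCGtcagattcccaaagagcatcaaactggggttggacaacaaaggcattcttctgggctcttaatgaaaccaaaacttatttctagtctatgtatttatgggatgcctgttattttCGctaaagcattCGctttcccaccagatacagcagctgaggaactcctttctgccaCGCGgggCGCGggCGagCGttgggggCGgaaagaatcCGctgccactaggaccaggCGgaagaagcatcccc
The windows hold 28 CG in GSTP1, 13 in CYP2W1, 10 in CYP1A1 and 12 in AKR1B1, so the gene that was lower had nearly as many as CYP2W1 and more than CYP1A1. The median over all 35116 promoter windows in the table was 11. The deposited GSTP1, AKR1B1 and CYP1A1 genes begin inside their printed windows, upstream of the RefSeq start.

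Promoter windows were found for 71 of the 92 members, and their median CG number was 10 (0 to 38). It was 12 in the windows of 20 members called higher, 13 in those of 11 called lower, 11 in those of 10 not called and 2.5 in those of 30 not tested. For 13 members, GSTO1 and GSTK1 among them, the nearest window lay over 2000 bases from the deposited 5′ end. Without these, the median was 13.5 in 16 windows of higher members and 12.5 in 10 of lower members, so the order of these groups turned. The letters GCGTG, the core bound by AHR, which contains a CG itself, were found on either strand in 25.4% of member windows and in 32.2% of all windows. The letters TGACNNNGC, the core of the NRF2 element, were found on either strand in 9.9% of member windows and 10.9% of all.

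P450 enzymes of fatty acids, steroids, bile acids and vitamins moved both ways. The strongest decrease was in CYP27B1, the hydroxylase that makes the active vitamin D hormone (chromosome 12, 57762334 to 57767095). CYP27B1 measured 3.00, 2.65 and 3.06 FPKM in the inhibitor libraries, against 6.56, 5.92 and 6.61 FPKM in the DMSO libraries. All inhibitor values lay below all DMSO values, with a log2 fold change of -1.13 (SE 0.101, edgeR adjusted p = 7.11e-06).

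Of the 6 tested steroid, bile acid and vitamin P450 genes, CYP27B1 included, 3 were called higher, all at low levels, and 1 was lower. Of all tested genes 38.1% were higher and 27.3% lower. CYP26A1, which breaks down retinoic acid, measured 0.125, 0.148 and 0.259 FPKM with the inhibitor, against 0.0555, 0.0275 and 0.0737 FPKM with DMSO (log2 fold change 1.71, SE 0.532, edgeR adjusted p = 0.0176). The groups did not overlap, but the call was lost without inhibitor replicate 3 (adjusted p = 0.0860) and without DMSO replicate 2 (adjusted p = 0.0554). CYP19A1, the aromatase that makes oestrogens, was at 0.0185 to 0.0277 FPKM with the inhibitor and 0 with DMSO. It overlaps MIR4713HG on the opposite strand, which was called higher (mean 0.507 FPKM with the inhibitor and 0 with DMSO). Further overlapping genes without a symbol, on either strand, had means of 0.103 and 0.121 FPKM with the inhibitor and 0 with DMSO. The few CYP19A1 reads may therefore belong to these genes. CYP46A1, the cholesterol hydroxylase of the brain, was at 0.0412 to 0.0673 FPKM with the inhibitor and at most 0.00898 FPKM with DMSO. The retinoic acid hydroxylase CYP26C1 and the sterol hydroxylase CYP27A1 were not called, and their groups overlapped. Of the steroid-making cell markers, 2 of 3 had a row in the table, with summed levels of 0.507 to 0.991 FPKM in inhibitor libraries and 0.0174 to 0.0837 FPKM in DMSO libraries. NR5A1, 1 of these 2, was higher (0.721 ± 0.196 FPKM with the inhibitor and 0.00993 ± 0.00947 FPKM with DMSO), STAR was not called (edgeR adjusted p = 0.451), and their part in the result was not tested. CYP4V2, a fatty acid hydroxylase, measured 1.74, 2.19 and 2.30 FPKM with the inhibitor, against 1.217, 1.335 and 1.013 FPKM with DMSO (log2 fold change 0.80, SE 0.133, edgeR adjusted p = 4.89e-04). CYP4F11, of the same fatty acid family, lay above DMSO in every inhibitor library but was not called (log2 fold change 1.94, SE 0.817, edgeR adjusted p = 0.0613). It was called with DESeq2, with limma at each pseudocount, with upper-quartile scaling, with the replicate block and without DMSO replicate 1 (adjusted p = 0.0312 to 0.0467). CYP20A1, a P450 without an agreed substrate, measured 1.73, 1.48 and 1.45 FPKM with the inhibitor, against 0.941, 1.05 and 1.05 FPKM with DMSO (log2 fold change 0.61, SE 0.114, edgeR adjusted p = 0.00104).

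Aldo-keto reductases were dominated by AKR1B1, aldose reductase, which turns glucose into sorbitol and reduces lipid aldehydes (chromosome 7, 134442356 to 134459284). AKR1B1 measured 27.15, 25.79 and 24.97 FPKM in inhibitor libraries, against 44.37, 42.56 and 47.84 FPKM in DMSO libraries. The groups were well apart, at a log2 fold change of -0.80 (SE 0.0588, edgeR adjusted p = 2.03e-06). AKR1A1, the general aldehyde reductase, measured 13.4, 13.9 and 11.9 FPKM with the inhibitor, against 13.9, 14.4 and 16.4 FPKM with DMSO. The groups overlapped and it was not called (log2 fold change -0.20, SE 0.0830, edgeR adjusted p = 0.0612), although without DMSO replicate 1 it was (adjusted p = 0.0340). The other 5 AKR1 genes had too few counts to test. The summed AKR1 level was 36.9 to 40.6 FPKM with the inhibitor and 57.0 to 64.3 FPKM with DMSO.

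Aldehyde dehydrogenases were the most widely expressed family, with 15 of 17 genes tested. Of these 9 were higher, 5 lower and 1 not called, where 38.1% of all tested genes were higher and 27.3% lower. The summed ALDH level nevertheless lay close in both groups, at 97.4, 104.9 and 97.4 FPKM in inhibitor libraries and 94.8, 92.1 and 94.7 FPKM in DMSO libraries. ALDH1L2, the mitochondrial formyltetrahydrofolate dehydrogenase of folate metabolism (chromosome 12, 105019784 to 105084458), measured 4.58, 5.40 and 5.43 FPKM with the inhibitor, against 0.0965, 0.0741 and 0.0682 FPKM with DMSO. Every inhibitor value was far above every DMSO value, at a log2 fold change of 5.95 (SE 0.131, edgeR adjusted p = 3.89e-09), or 62.0-fold; ALDH1L2 overlaps a gene on the opposite strand, and the use of strand in counting was not given in the sources used here. ALDH16A1, a little-studied member (chromosome 19, 49453225 to 49471050), measured 8.12, 8.80 and 7.74 FPKM with the inhibitor, against 2.76, 2.72 and 2.43 FPKM with DMSO (log2 fold change 1.63, SE 0.0821, edgeR adjusted p = 1.93e-07).

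Several ALDH enzymes of amino acid metabolism changed. ALDH5A1, which completes the breakdown of the neurotransmitter GABA, measured 11.9, 15.2 and 12.8 FPKM in inhibitor libraries, against 6.53, 5.98 and 6.85 FPKM in DMSO libraries (log2 fold change 1.04, SE 0.0857, edgeR adjusted p = 4.33e-06). ALDH4A1, which takes part in proline breakdown, measured 1.23, 1.66 and 1.16 FPKM with the inhibitor, against 0.130, 0.157 and 0.161 FPKM with DMSO (log2 fold change 3.14, SE 0.239, edgeR adjusted p = 2.48e-06). For ALDH4A1, 34.0% of its transcript windows of 100 bases occur in another annotated gene, so reads may be shared. ALDH18A1, which makes the precursor of proline, measured 34.1, 36.7 and 34.4 FPKM with the inhibitor, against 43.6, 41.3 and 43.2 FPKM with DMSO (log2 fold change -0.29, SE 0.0440, edgeR adjusted p = 2.66e-04). Groups did not overlap in any of these genes. ALDH6A1, of valine breakdown, measured 2.90, 3.18 and 3.06 FPKM with the inhibitor, against 1.97, 2.12 and 1.98 FPKM with DMSO (log2 fold change 0.58, SE 0.0824, edgeR adjusted p = 1.64e-04).

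Small decreases were seen in other well expressed ALDH genes. ALDH9A1, which acts in carnitine synthesis, measured 28.8, 29.1 and 28.0 FPKM in inhibitor libraries, against 33.8, 33.6 and 33.8 FPKM in DMSO libraries (log2 fold change -0.24, SE 0.0417, edgeR adjusted p = 5.76e-04). ALDH1B1, a mitochondrial enzyme that oxidises acetaldehyde, measured 4.04, 3.13 and 2.95 FPKM with the inhibitor, against 4.62, 4.60 and 5.00 FPKM with DMSO (log2 fold change -0.50, SE 0.140, edgeR adjusted p = 0.0110). Groups did not overlap in either gene, but upper-quartile scaling, which moved the median of all genes by 0.17 on the log2 scale, ended both calls (adjusted p = 0.148 for ALDH9A1 and 0.0632 for ALDH1B1). ALDH3A2, the fatty aldehyde dehydrogenase, was at 0.375 to 0.552 FPKM with the inhibitor and 0.849 to 1.09 FPKM with DMSO (log2 fold change -1.001, SE 0.165, edgeR adjusted p = 4.45e-04). ALDH8A1, an enzyme of tryptophan breakdown, was lower at 0.0607 to 0.144 FPKM with the inhibitor and 0.236 to 0.313 FPKM with DMSO (log2 fold change -1.37, SE 0.405, edgeR adjusted p = 0.0139). ALDH3B2, a lipid aldehyde dehydrogenase, was higher at 0.449 to 0.708 FPKM with the inhibitor and 0.0356 to 0.0530 FPKM with DMSO (log2 fold change 3.66, SE 0.329, edgeR adjusted p = 7.45e-06). Its relative ALDH3B1 was called higher at 0.0423 to 0.138 FPKM with the inhibitor and 0.0225 to 0.0390 FPKM with DMSO (edgeR adjusted p = 0.0224), a call that was lost when DMSO replicate 2 or 3 or inhibitor replicate 2 or 3 was left out (adjusted p = 0.0524 to 0.113). The retinaldehyde dehydrogenase ALDH1A3 was not called (log2 fold change 0.52, SE 0.461, edgeR adjusted p = 0.349). The retinaldehyde dehydrogenase ALDH1A1 and the lysine-pathway enzyme ALDH7A1 had 0 DMSO counts; ALDH1A1 reached 0.1801 to 0.3285 FPKM and ALDH7A1 0.0211 to 0.0652 FPKM with the inhibitor.

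**Figure D3:**
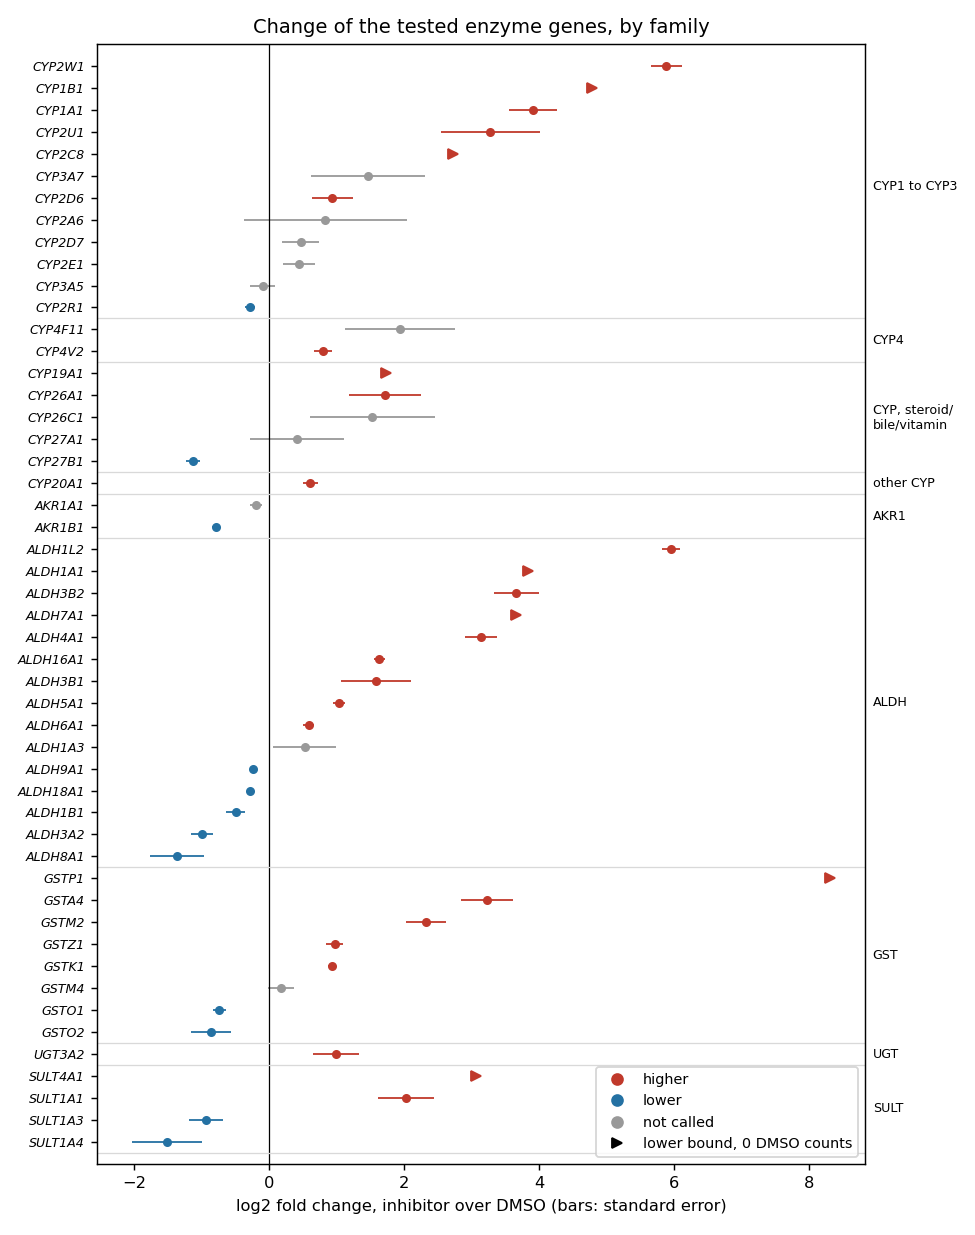
Log2 fold change, inhibitor over DMSO, of tested enzyme genes grouped by family, with standard errors as bars; arrowheads are lower bounds for genes with 0 DMSO counts, and CYP46A1, given by level only, is not drawn. ALDH1L2 (5.95) and CYP2W1 (5.88) lie farthest right among genes with a fitted fold, GSTP1 has the largest bound, and CYP27B1, ALDH8A1 and SULT1A4 lie farthest left.

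Glutathione transferases changed in level and in make-up. GSTP1, the pi-class enzyme that conjugates electrophiles and whose promoter methylation is known from prostate cancer (chromosome 11, 67583742 to 67586656), measured 11.15, 11.03 and 8.016 FPKM in inhibitor libraries and 0 in the 3 DMSO libraries. Its inhibitor counts were 1223, 1202 and 829, against 0 counts in each DMSO library. That is at least 317-fold higher against the floor of 12 counts over the DMSO group (edgeR adjusted p = 1.90e-07), and at least 198-fold without DMSO replicate 2 and 210.4-fold without DMSO replicate 3, where fewer DMSO counts stand behind the floor. GSTP1 was the only member with 0 DMSO counts and an FPKM of at least 1 in every inhibitor library.

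GSTK1, the kappa-class enzyme of mitochondria and peroxisomes (chromosome 7, 143244093 to 143270854), measured 15.2, 14.9 and 14.6 FPKM with the inhibitor, against 7.93, 7.71 and 7.85 FPKM with DMSO. Its groups were tight and apart (log2 fold change 0.92, SE 0.0499, edgeR adjusted p = 2.88e-07). GSTO1, the omega-class enzyme that reduces arsenic compounds (chromosome 10, 104235356 to 104267459), measured 9.18, 7.85 and 8.65 FPKM with the inhibitor, against 15.1, 13.2 and 14.5 FPKM with DMSO (log2 fold change -0.74, SE 0.0936, edgeR adjusted p = 7.72e-05). GSTO1 gave 22.7%, 20.5% and 24.5% of the summed GST FPKM with the inhibitor, against 59.7%, 56.4% and 58.5% with DMSO. GSTP1 gave 27.6%, 28.8% and 22.7% with the inhibitor and none with DMSO, and the sum was 35.3 to 40.4 FPKM with the inhibitor and 23.3 to 25.3 FPKM with DMSO.

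**Figure D4:**
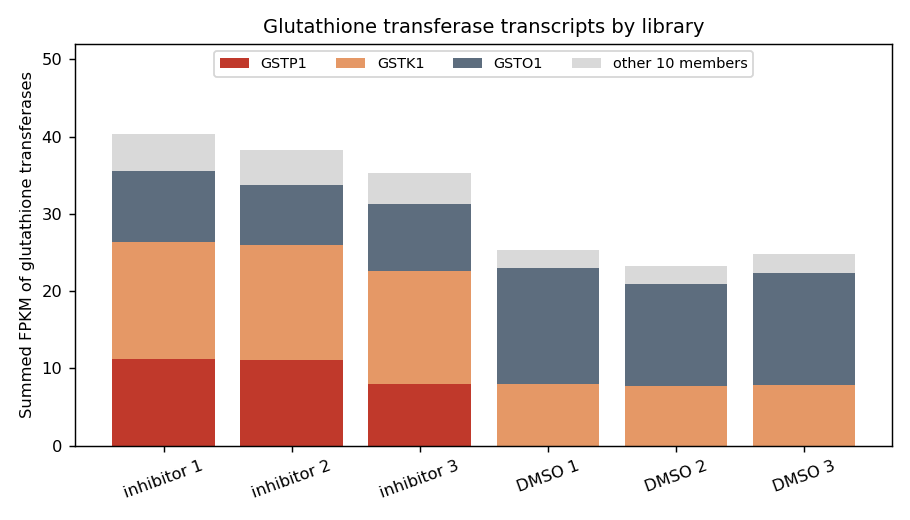
Summed FPKM of the 13 glutathione transferase genes in each library, inhibitor libraries left and DMSO libraries right, split into GSTP1, GSTK1, GSTO1 and the other 10 genes. The GSTP1 layer is present in the 3 inhibitor libraries only, and the GSTO1 layer is thickest with DMSO.

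GSTA4, the alpha-class enzyme that conjugates the lipid aldehyde hydroxynonenal, measured 1.57, 1.12 and 1.12 FPKM with the inhibitor, against 0.0886, 0.0892 and 0.214 FPKM with DMSO (log2 fold change 3.22, SE 0.388, edgeR adjusted p = 5.51e-05). GSTZ1, which also isomerises an intermediate of tyrosine breakdown, measured 1.35, 1.26 and 1.20 FPKM with the inhibitor, against 0.648, 0.656 and 0.622 FPKM with DMSO (log2 fold change 0.97, SE 0.127, edgeR adjusted p = 9.92e-05). Both genes were higher in every inhibitor library than in any DMSO library. Within the mu cluster on chromosome 1, GSTM2 was higher at 0.172 to 0.241 FPKM with the inhibitor and 0.0335 to 0.0454 FPKM with DMSO (log2 fold change 2.32, SE 0.292, edgeR adjusted p = 7.44e-05) and GSTM4 was not called at 1.088 to 1.737 FPKM with the inhibitor and 1.184 to 1.443 FPKM with DMSO (log2 fold change 0.17, SE 0.190, edgeR adjusted p = 0.459). These neighbours share transcript windows with other mu genes (12.9% in GSTM2), so their reads may be split. GSTO2, next to GSTO1, was called lower, but its groups overlapped at 0.116 to 0.162 FPKM with the inhibitor and 0.160 to 0.327 FPKM with DMSO, and the call was lost without DMSO replicate 1, DMSO replicate 3, inhibitor replicate 1 or inhibitor replicate 2 (adjusted p = 0.0930, 0.0746, 0.0922 and 0.0576).

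Glucuronidation and sulfation genes were barely expressed. Of 9 UGT genes, only UGT3A2, a glycosyltransferase, was tested; it measured 0.311, 0.385 and 0.510 FPKM with the inhibitor, against 0.253, 0.198 and 0.155 FPKM with DMSO. UGT3A2 was called higher (log2 fold change 0.99, SE 0.335, edgeR adjusted p = 0.0261), and the call was lost when any library but DMSO replicate 1 or inhibitor replicate 1 was left out (adjusted p = 0.0524 to 0.105). Among the sulfotransferases, 4 of 7 were tested, 2 higher and 2 lower, where 38.1% of all tested genes were higher and 27.3% lower. SULT1A1, the main phenol sulfotransferase, was at 0.0673 to 0.0894 FPKM with the inhibitor and 0.0156 to 0.0193 FPKM with DMSO (log2 fold change 2.02, SE 0.415, edgeR adjusted p = 0.00178). SULT4A1, a brain sulfotransferase, had 0 DMSO counts and 0.116 to 0.205 FPKM with the inhibitor. SULT1A3, a catecholamine sulfotransferase, was called lower at 0.263 to 0.337 FPKM with the inhibitor and 0.571 to 0.661 FPKM with DMSO (edgeR adjusted p = 0.00823). Its copy SULT1A4 was called lower at 0.0951 to 0.172 FPKM with the inhibitor and 0.212 to 0.695 FPKM with DMSO (edgeR adjusted p = 0.0266). They are near-identical copies, with 80.4% and 95.3% of transcript windows occurring in another gene, so neither can be read alone. SULT1A3 overlaps SLX1A-SULT1A3 on the same strand, which was lower (mean 5.00 FPKM with the inhibitor and 5.85 FPKM with DMSO). SULT1A4 overlaps SLX1B-SULT1A4 on the same strand, which was not called (4.10 FPKM with the inhibitor and 4.39 FPKM with DMSO). SULT1A4 also overlaps a gene without a symbol on the opposite strand, which was lower (3.97 FPKM with the inhibitor and 11.28 FPKM with DMSO). Reads of SULT1A3 and SULT1A4 may therefore belong to these genes. The SULT1A4 fold was 0.351 with all libraries and 0.550, without a call (adjusted p = 0.1798), without DMSO replicate 3. Its call was also lost without inhibitor replicate 1 or 2 (adjusted p = 0.0895 and 0.0737), with no filter (adjusted p = 0.0506) and in the limma fits at each pseudocount (adjusted p = 0.0516 to 0.0817).

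The 41 members that were not tested never exceeded 0.165 FPKM or 27 counts in a library. Among these 41, 25 had 0 counts in every DMSO library and 3 had 0 counts in every inhibitor library. They include the liver P450 genes CYP1A2, CYP2C19 and CYP3A4 and 8 of the 9 UGT genes. Any count at all was present for 76, 72 and 73 of the 92 members in the inhibitor libraries, against 49, 51 and 48 in the DMSO libraries, which were sequenced more deeply. The matching numbers over all genes are not given here, so this difference cannot be read as particular to these enzymes.

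Genes that regulate and supply these enzymes were taken from 8 lists with 78 genes in the table, of which 69 were tested, 31 were higher (44.9%), 19 lower (27.5%) and 19 not called, where 38.1% of all tested genes were higher and 27.3% lower. In the AHR pathway 3 genes were higher and 2 lower of 5. AHR, the receptor for aromatic hydrocarbons, measured 0.348, 0.421 and 0.447 FPKM with the inhibitor, against 0, 0.0220 and 0.0119 FPKM with DMSO (log2 fold change 5.01, SE 0.608, edgeR adjusted p = 5.86e-05), or 32.2-fold, and 61.2-fold without DMSO replicate 2. Its repressor AHRR measured 0.344, 0.208 and 1.86 FPKM with the inhibitor, against 0.0619, 0.0240 and 0.0895 FPKM with DMSO; the fold of 13.0 was 4.55 without inhibitor replicate 3, the high library, and limma on log2(FPKM + 0.5) did not call it (adjusted p = 0.0766).

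Of the 15 genes of the NRF2 pathway, the response to electrophiles and oxidants, 5 were higher, 4 lower and 6 not called, where 38.1% of all tested genes were higher and 27.3% lower. HMOX1, the haem-degrading oxygenase, measured 6.15, 7.38 and 6.34 FPKM with the inhibitor, against 0.0419, 0 and 0.0704 FPKM with DMSO. The fold of 175 (log2 fold change 7.45, SE 0.485, edgeR adjusted p = 8.94e-07) rests on few DMSO counts, and was 112 without DMSO replicate 2 and 340 without DMSO replicate 3. NQO1, the quinone reductase, measured 40.6, 35.2 and 38.5 FPKM with the inhibitor, against 0.937, 0.520 and 0.483 FPKM with DMSO (log2 fold change 5.89, SE 0.191, edgeR adjusted p = 1.96e-08). Among other targets of NRF2, higher levels were called for the thioredoxin reductase TXNRD1 (log2 fold change 0.52) and the glutathione synthesis subunit GCLC (log2 fold change 0.25). The partner subunit GCLM was lower (log2 fold change -0.33, edgeR adjusted p = 0.00672, or 0.127 with upper-quartile scaling), and the sulfiredoxin SRXN1 (18.5 ± 0.695 FPKM with the inhibitor and 18.3 ± 0.230 FPKM with DMSO, called higher under upper-quartile scaling, adjusted p = 0.0115) and the cystine carrier SLC7A11 (5.74 ± 0.649 FPKM with the inhibitor and 6.49 ± 0.691 FPKM with DMSO) were not called. NFE2L2, which encodes NRF2, was at 6.74 ± 0.343 FPKM with the inhibitor and 6.79 ± 0.107 FPKM with DMSO, and was not called (edgeR adjusted p = 0.761; under upper-quartile scaling its log2 fold change was 0.16, adjusted p = 0.0117). KEAP1, which targets NRF2 for degradation, was lower at 13.7 ± 1.24 FPKM with the inhibitor and 24.1 ± 1.42 FPKM with DMSO (log2 fold change -0.82, SE 0.0771, edgeR adjusted p = 9.98e-06).

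Of the 7 genes listed as electron donors of P450 enzymes 4 were higher and 3 lower, where 65.4% of all tested genes were called. POR, the reductase of microsomal P450 enzymes, measured 16.0, 16.3 and 15.2 FPKM with the inhibitor, against 5.72, 5.81 and 5.72 FPKM with DMSO (log2 fold change 1.45, SE 0.0507, edgeR adjusted p = 2.70e-08). The outer mitochondrial cytochrome CYB5B was lower, with a log2 fold change of -0.81 (SE 0.0471, edgeR adjusted p = 4.65e-07), and so was the mitochondrial ferredoxin FDX2, with -1.38 (SE 0.200, edgeR adjusted p = 1.93e-04). The other mitochondrial ferredoxin, FDX1, was higher (log2 fold change 0.32, SE 0.0868, edgeR adjusted p = 0.00872). So was the ferredoxin reductase FDXR (log2 fold change 0.57, SE 0.183, edgeR adjusted p = 0.0202). Of 7 tested nuclear receptors of xenobiotic metabolism 2 were higher, among them the pregnane receptor NR1I2, at 0.0856 ± 0.0361 FPKM with the inhibitor and 0 with DMSO. The other 3 called receptors were lower, among them the constitutive androstane receptor NR1I3 (log2 fold change -1.51, SE 0.388, edgeR adjusted p = 0.00672) and the retinoid X receptor RXRB (log2 fold change -0.60, SE 0.0594, edgeR adjusted p = 1.39e-05).

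Other phase I enzymes comprised 13 tested genes, 6 higher and 1 lower, where 38.1% of all tested genes were higher and 27.3% lower. CBR1, the carbonyl reductase, measured 2.79, 3.35 and 2.76 FPKM with the inhibitor and 0 in the 3 DMSO libraries, at least 129-fold higher against the floor, and at least 80.9-fold without DMSO replicate 2 and 85.9-fold without DMSO replicate 3. The epoxide hydrolase EPHX1 was at 2.16 ± 0.200 FPKM with the inhibitor and 0.996 ± 0.236 FPKM with DMSO, and the carboxylesterase CES2 at 6.82 ± 0.489 FPKM with the inhibitor and 3.58 ± 0.280 FPKM with DMSO, both called higher. Of 8 tested other phase II enzymes 4 were higher and 2 lower, beside the same shares of all tested genes. The microsomal glutathione transferase MGST2 was at 0.577 ± 0.0437 FPKM with the inhibitor and 0 with DMSO. TPMT, which methylates thiopurine drugs, was lower at 3.73 ± 0.527 FPKM with the inhibitor and 13.0 ± 0.405 FPKM with DMSO (log2 fold change -1.81, SE 0.0953, edgeR adjusted p = 2.50e-07), and UGT8, a galactosyltransferase of lipids, was lower with a log2 fold change of -0.97.

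Of 7 genes of cofactor supply 3 were higher and 2 lower, where 38.1% of all tested genes were higher and 27.3% lower. UGDH, which makes UDP-glucuronic acid, was higher at 6.58 ± 0.120 FPKM with the inhibitor and 2.11 ± 0.0797 FPKM with DMSO (log2 fold change 1.63, SE 0.0798, edgeR adjusted p = 1.64e-07), and UGP2, the enzyme before it, was lower (log2 fold change -0.49, SE 0.0572, edgeR adjusted p = 4.46e-05). GGCT, of the glutathione cycle, was lower with a log2 fold change of -1.0 (SE 0.0614, edgeR adjusted p = 6.25e-07). Of 7 tested export pumps 4 were higher and 2 lower, beside the same shares of all tested genes. ABCB1, the multidrug pump P-glycoprotein, measured 2.08, 2.55 and 1.69 FPKM with the inhibitor, against 0.109, 0.0554 and 0.112 FPKM with DMSO (log2 fold change 4.49, SE 0.278, edgeR adjusted p = 6.57e-07). ABCC5, a nucleotide exporter, was higher (log2 fold change 1.08, SE 0.0435, edgeR adjusted p = 5.60e-08), and ABCG2, the breast cancer resistance pump, was lower at 0.183 ± 0.0254 FPKM with the inhibitor and 0.822 ± 0.147 FPKM with DMSO (log2 fold change -2.15, SE 0.227, edgeR adjusted p = 2.18e-05).

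**Figure D5:**
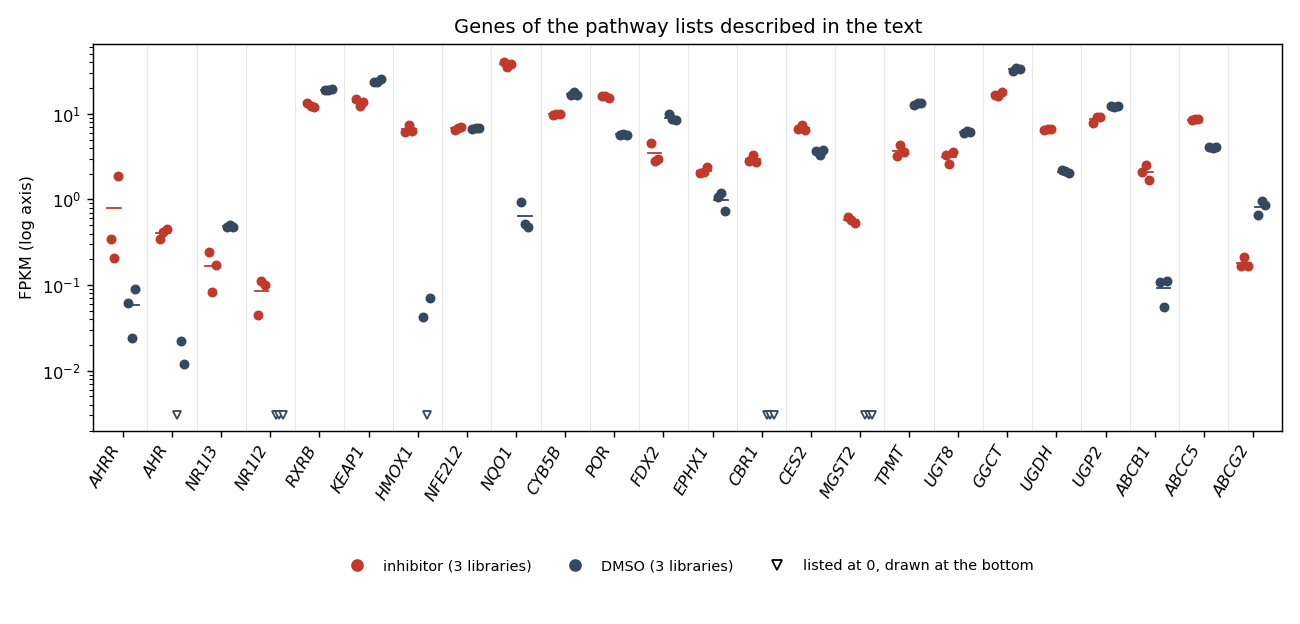
FPKM (log axis) of the regulators, electron donors, cofactor enzymes and pumps described above, each point a library, inhibitor left and DMSO right of each position, with means as bars where no library is at 0 and open triangles for values listed at 0. CBR1, MGST2 and NR1I2 are at 0 in every DMSO library, NQO1 is separated by over a decade, and NFE2L2 overlaps between groups.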

How the data were processed

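The authors deposited, for every gene, a count and an FPKM value per library, named in the file headers without a definition of the scaling. The deposited counts are whole numbers that peak at multiples of 4 (a mean of 1320 genes in a library stood at 4 and 725.8 at 3), so 4 counts were taken as about 1 read pair. Per the submitters' processing notes, the tools were DESeq2, edgeR, StringTie 2.1.6, HISAT2 2.2.1 and cutadapt 1.9, in no stated role; the notes name the mouse build mm10, yet all 92 members matched human GENCODE 29 IDs and overlapped their GRCh38 positions. The use of strand in counting was not given in the sources used here.

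Counts were tested with edgeR 4.0.16 in R 4.3.3 (filterByExpr, TMM factors, quasi-likelihood F test, two-sided), with Benjamini-Hochberg adjustment over 20783 genes and calls at 0.05; a standard error is the size of the log2 change over the root of its F statistic. The scripts were tested on simulated data. Values are mean FPKM ± SD (n = 3 per group). A gene with 0 DMSO counts has only a bound against 12 counts (3 read pairs) over the group, which covers counting error only, and a gene with 1 to 12 counts in a group is given by level. Alternatives were DESeq2 1.42.0, limma 3.58.1 on log2 FPKM with pseudocounts of 0.1, 0.5 and 1, other scalings and filters, counts divided by 4, a replicate block and leaving out each library. Named members were the 12 largest increases and decreases in log2(FPKM + 0.5) with an FPKM of at least 1 and groups apart, the 4 highest per family, and genes at 0 with DMSO that reached 1; up to 3 called genes per pathway list were named, with AHR, NFE2L2, KEAP1 and POR. A few genes of the lists are not reported here. Other members, and other genes of the NRF2 and electron donor lists, were described to account for the family or list. The members and lists were chosen with earlier results of these data known. Libraries were grouped by title. The labels do not state separate cultures, so a p-value here measures the spread between libraries that may be technical repeats; after division of the counts by 4, replicate pairs differed by 3.36 to 7.04 times the variance that sampling of read pairs gives, which does not tell cultures from technical repeats. Reads shared between members were described by the share of 100-base transcript windows of GENCODE 29 found in another gene.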

Additional observations from a re-analysis of the deposited data

How the results depend on the processing

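When testing was limited to genes that reached an FPKM of 1 in 3 libraries, 12 members were higher and 7 lower of 21, and 4826 of 12395 genes were higher, because fewer genes were tested. Inhibitor replicate 1 is the only library whose treatment label names GSK3685032. A fit of that library alone against DMSO shifted the log2 fold changes of all genes by a median of 0.003. With 1 library in the group, the numbers of calls of that fit are not given here. Leaving out 1 library gave 26 to 33 members higher and 10 to 12 lower, and 7481 to 8065 of all genes higher and 5263 to 5434 lower. After counts were divided by 4, 36 members were tested, 19 higher and 11 lower, against 6595 and 5303 of 16200 genes. At that setting no sulfotransferase and no steroid, bile acid or vitamin P450 gene was called higher, with 1 gene of each group tested. The limma fits gave 21 to 22 members higher and 10 lower of 40, against 6956 to 7046 and 5668 to 5693 of 20947 genes. Upper-quartile scaling gave 30 members higher and 8 lower, against 9312 and 4344 of all genes. The excess of members detected per inhibitor library was 6.0 at an FPKM of 1, 15.7 at 0.1 and 2.33 at 5, and the median CG number was 12 over the whole promoter window of 300 bases and 10.5 for windows within 2000 bases of the deposited 5′ end, a limit chosen after seeing the data.

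Replicate numbers did not pair the samples (correlation of deviations 0.00049, 0.0211 and 0.00268); with the replicate block 26 members were higher and 11 lower, of which 25 and 11 were also called without it, and 7448 and 5368 of all genes.

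Genes without a call changed sign as follows, and the cause was not tested. CYP27A1 had a log2 fold change of -0.97 with inhibitor replicate 1 alone and -0.004381 without inhibitor replicate 2, and -0.01219 to 0.9375 over all removals of 1 library. CYP3A5 gave 0.07326 with upper-quartile scaling and -0.2356 to 0.01125 with 1 library left out. NFE2L2 gave 0.00314 with DESeq2, 0.003261 with its size factors, 0.08081 with the FPKM filter, 0.01277 with counts divided by 4, 0.1559 with upper-quartile scaling and -0.0469 to 0.005258 with 1 library left out. No called member, and no called pathway gene that was followed through all alternatives, changed direction. GCLC, GCLM, TXNRD1, SRXN1 and SLC7A11 were followed under upper-quartile scaling only. The cell type markers, FDX1, FDXR and the overlapping genes were not followed in the alternatives. Over 1220 comparisons of a single gene with an alternative, 1148 kept direction and call, 52 lost the call, 9 gained it and 11 changed sign. Depth limits genes below about 0.1 FPKM, where 1 read pair is a large share of the value, and bounds against 0 shrink with fewer DMSO libraries.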
